A study of Caenorhabditis elegans with 2 samples.

Results

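Of 9660 regions in the pooled list of TRA-4 ChIP-seq in early embryos of Caenorhabditis elegans, 238 had their summit within 500 bp of the start of an annotated piRNA gene. The summit is the position in a region where the authors' peak caller placed the strongest enrichment. Membership was decided from the summit position and the gene annotation alone, and no measured level entered it. Joining members that overlapped left 222 separate loci. Of the 238 members, 194 lay on chromosome IV. Chromosome II held 16, III held 10, X held 7, V held 6 and I held 5. The distances to the nearest piRNA start ran from 0 to 492 bp, with a median of 188.5 bp, and the nearest region outside the limit was 502 bp away.

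TRA-4 is a zinc finger protein that acts in sex determination of the worm. Chromatin immunoprecipitation followed by sequencing (ChIP-seq) recovers DNA bound by a protein, here through an antibody against GFP. The animals were of the transgenic strain OP640, genotype unc-119(tm4063) III with the insertion wgIs640, in which TRA-4 is fused to GFP and FLAG at its C-terminal end. Early embryos of both sexes were taken whole after bleaching, so the signal is a mixture over all cells of the embryo. The 2 biological replicates form 1 group, every sample carries the tagged protein, and the promoter that drives it was not given in the sources used here.

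piRNAs are small RNAs bound by Piwi proteins, which silence foreign sequences such as transposons in the germline. Those of Caenorhabditis elegans are 21 bases long and begin with U, and each comes from its own small gene. Most of these genes sit in 2 large clusters on chromosome IV, in AT-rich sequence within introns and between protein-coding genes. Many have an upstream element with the core CTGTTTCA, which recruits a complex with PRDE-1 and SNPC-4, the worm's homologue of a subunit of the complex that drives snRNA genes.

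The next sequences show what the piRNA genes under study look like, with 60 bases before the gene followed by its 21 bases, read on the gene's own strand. They are the nearest piRNA genes of the 3 strongest regions whose summit windows held the core, and capitals mark the core.
21ur-3706: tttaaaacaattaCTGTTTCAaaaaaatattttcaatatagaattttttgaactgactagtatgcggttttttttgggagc
21ur-5290: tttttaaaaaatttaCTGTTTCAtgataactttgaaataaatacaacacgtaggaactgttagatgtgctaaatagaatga
21ur-7216: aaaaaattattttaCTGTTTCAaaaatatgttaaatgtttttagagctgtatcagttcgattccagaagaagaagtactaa
All are on the plus strand of chromosome IV in ce11 (WBcel235), from RefSeq's copy of the assembly, at 16380959 to 16381039, 5860061 to 5860141 and 5600720 to 5600800. The core begins 47, 45 and 46 bases before the start. Their regions ranked 2337, 2611 and 3221 of the 9660.

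The windows around 2 of the strongest summits near piRNA genes look different. Here 50 bases to either side of the summit are given on the plus strand, and capitals mark GTTCGANNC on either strand, the core of the B box, an internal promoter element of tRNA genes.
region of rank 78: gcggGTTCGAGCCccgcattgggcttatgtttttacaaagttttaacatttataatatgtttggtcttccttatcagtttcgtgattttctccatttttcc
region of rank 296: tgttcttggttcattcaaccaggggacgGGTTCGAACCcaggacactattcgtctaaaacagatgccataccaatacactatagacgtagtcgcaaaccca
They span 5967208 to 5967308 and 14838304 to 14838404 of chromosome IV. In the first, the letters lie in the annotated tRNA gene WBGene00022903. In the other, no annotated tRNA gene lies within 500 bp, the letters read as a match on both strands, and the summit is in an intron of the protein-coding gene Y57G11C.22. A match is a description of the letters and not a binding site. The element lay within 50 bp of the summit in 3 of 238 members (1.26%, 95% interval 0.261 to 3.64) and in 1.86% of all 9660 regions. Away from tRNA starts it was in 1 of 225 members (0.444%, 0.0113 to 2.45), in 0.659% of other regions of IV and in 0.890% of all pooled regions, values within the members' interval. These intervals are exact (Clopper-Pearson) and cover counting error only.

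Few regions near piRNA genes passed the stricter rules, and few regions of the whole list did. The authors' final set, kept by the IDR method (irreproducible discovery rate, which asks whether ranks match between replicates), held 4 of the 238 (1.68%, 0.460 to 4.25), beside 4.08% of the whole pooled list. Another rule, a q-value under 0.05 in the pooled list, passed 7 members (2.94%, 1.19 to 5.97), beside 5.54% of all regions. Both whole-list shares lie within the members' intervals. On chromosome IV the IDR set held 2 of 194 members (1.03%, 0.125 to 3.67). It held 4.33% of the other 1247 regions there, a share above the members' interval. In the clusters of IV it held 2 of 179 members (1.12%, 0.136 to 3.98) and 6.52% of 445 other regions. Off IV it held 2 of 44 members (4.55%, 0.555 to 15.5). Among 15363 piRNA genes, 6 had an IDR summit within 500 bp of the start, against 0.981% of protein-coding genes. No test across regions was made for these counts, because regions of 1 pooled list are not replicates.

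The strongest member, at rank 78, had a signal value of 197 in the pooled list, 81.1 in replicate 1 and 116 in replicate 2. Signal is the authors' own value on a scale that differs between lists, so only ranks within a list are compared here, and they were 69 and 95 in the replicates. Its summit (IV, 5967258) lay 169 bp from the start of the piRNA gene 21ur-5229, 98 bp downstream of the start of the tRNA gene shown above, and inside the noncoding RNA gene B0350.73.

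The region of rank 118 (II, 6968389) had a pooled signal of 163 and ranked 194 and 88 in replicates 1 and 2. It lay 51 bp upstream of 21ur-14704 and 3 bp upstream of the noncoding RNA gene C15F1.14, inside the protein-coding gene C15F1.5. The start of sup-39, which is annotated as an snRNA gene, was 169 bp away. A neighbouring summit at rank 408 (II, 6968589) matched the same region in each replicate, so the pair is 1 locus in the replicates. Rank 241 (II, 1320565; pooled signal 123, ranks 307 and 215) lay 168 bp upstream of 21ur-13751 and 472 bp upstream of vig-1, a homologue of a Drosophila protein found with the RNA interference machinery. It too had a neighbour that shared its replicate regions, at rank 670.

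The last of the 4 in the IDR set was rank 296 (IV, 14838354), with a pooled signal of 111 and ranks of 291 and 401. Its nearest piRNA start, of 21ur-10291, was 335 bp downstream, and no start of any other gene type lay within 500 bp. Of the 4, it was the only one for which the annotation gave no other start.

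Below these, the next of the 10 strongest members lay mostly at tRNA genes or in introns. Rank 450 (IV, 5038872) was 48 bp upstream of the tRNA gene WBGene00022920 and ranked 1148 and 422 in the replicates. Rank 483 (IV, 5980336, ranks 963 and 804) was inside unc-44, which encodes an ankyrin of neurons. It lay 62 bp upstream of the noncoding RNA gene B0350.77. Rank 591 (IV, 14576701; ranks 491 and 939) was 8 bp upstream of the tRNA gene WBGene00014592. Rank 638 (II, 4130261; ranks 659 and 1051) was in an intron of ast-1, a gene for an ETS transcription factor, and no other start was near it. Just after that summit the sequence is a run of repeated GT, and its bearing on the signal was not tested.

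On the remaining chromosomes the strongest members were further down the list. On X the first was rank 740 (7962264, near 21ur-13424), at ranks 2148 and 754 in the replicates. On V it was rank 1480 (11071457, near 21ur-13032), at 3714 and 1652, and on III rank 1771 (4015714, inside C36E8.4), at 3356 and 1486. Chromosome I began at rank 2523 (7639868), 83 bp upstream of capg-1, a condensin subunit gene, at ranks 6488 and 3660. Each of these ranked higher in replicate 2 than in replicate 1, in lists of 13957 and 19062 regions.

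As a group, members on chromosome IV ranked lower than their neighbours. Their median rank was 6032 (quartiles 3468 and 7906), and that of the other regions of the chromosome was 4600 (2273 and 7110). Inside the clusters the medians were 6028 and 4287. The order was the same in each replicate's own list. As a percentile of the list, where 100 is the weakest, the medians were 58.1 for members and 49.0 for other regions in replicate 1 and 60.002 and 49.2 in replicate 2. The 44 members on the other chromosomes had a median rank of 4559.5, close to the middle of the list.

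**Figure D1:**
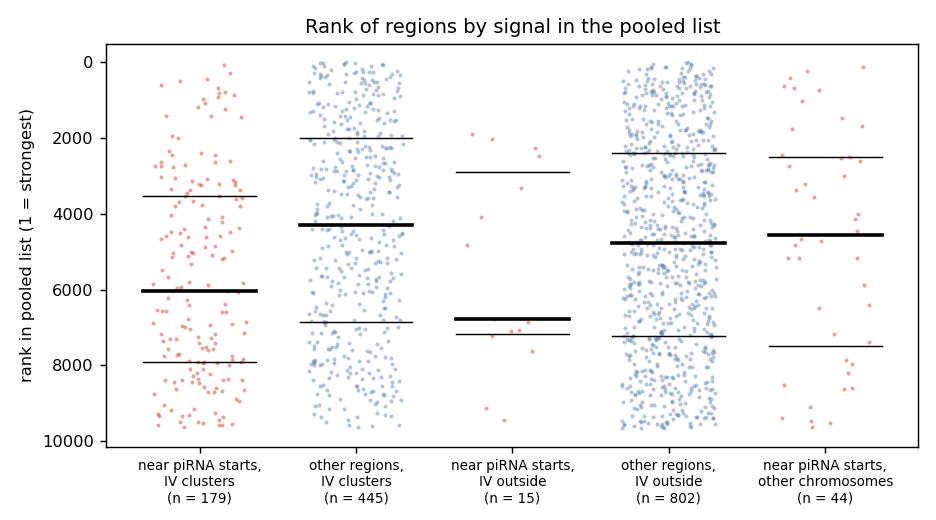
Rank in the pooled list (1 is the strongest, plotted at the top) of single regions, one point each, in 5 groups; thick lines are medians and thin lines quartiles. Members in the clusters of chromosome IV have their median at 6028 and other regions there at 4287, and the groups overlap over nearly the whole range.

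At the edge of the 500 bp limit, the 23 members more than 400 bp from a start had a median rank of 6784, and the 33 regions in the next 100 bp outside had one of 5736.

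The gap in rank was present at each level of GC content. Chromosome IV regions were split into 3 classes by the GC content of the 50 bp to either side of the summit, up to 34.7%, up to 43.6% and above. Median ranks of members and other regions were 6578 and 5129 in the lowest class, 6367 and 4901.5 in the middle class and 4366 and 3609 in the highest. Both groups were stronger where GC was higher. Leaving out regions near a start of a tRNA, snoRNA or snRNA gene, chosen after the values were seen, gave 6268 and 4798.

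Fewer members than other regions were found in both replicates. Of the 238, 132 (55.5%, 48.9 to 61.9) overlapped a region by at least 1 bp in both replicate lists, beside 63.2% of all pooled regions. On chromosome IV the shares were 53.6% of members and 65.1% of other regions. Both shares fell with rank, and at like rank the order of the groups varied. Among the strongest 2415 regions of the list, all 24 members on IV and 96.4% of the 338 other regions were in both. From rank 2416 to 4830 the shares were 78.4% of 51 members and 70.9% of 316 other regions, and from 4831 to 7245 they were 46.9% of 49 members and 53.2% of the others. From rank 7246 on, the shares were 24.3% of 70 members and 35.03% of 294 other regions. Spearman's rho of signal between the 2 lists was 0.17 over these 132, which matched 118 distinct pairs of replicate regions. It was 0.06 over the 119 away from tRNA, snoRNA and snRNA starts. On IV it was 0.05 over 104 members and 0.37 over 812 other regions in both lists. Pearson's r of log10 signal was higher, 0.50 over the 132 members. It was 0.27 over the 119, and on IV 0.32 over the 104 members and 0.68 over the 812 other regions. The correlations were not taken at like rank. These are descriptions across regions, which share the same 2 libraries.

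**Figure D2:**
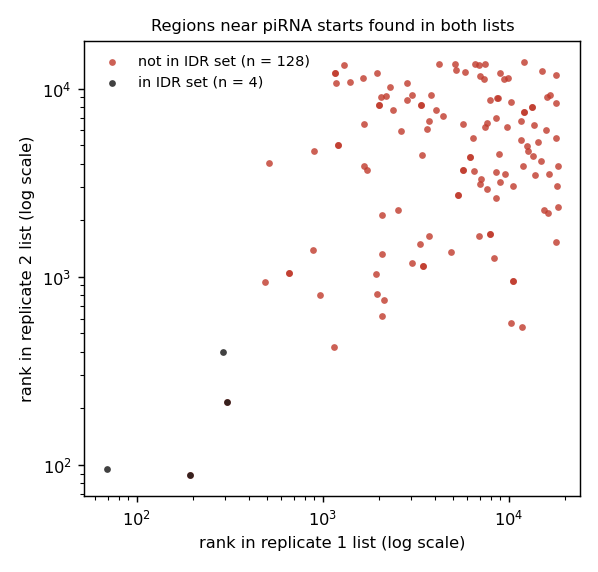
Rank in the replicate 1 list against rank in the replicate 2 list, both on log scales, for the 132 members found in both. The 4 members in the IDR set (black) rank 401 or better in both, and so do the members of pooled ranks 408 and 670, which share replicate regions with 2 of them and fall on the same points.

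Regions were sparse around piRNA starts compared with how much sequence lies there. On chromosome IV, 24.1% of bases lie within 500 bp of a piRNA start, and they held 13.5% of the regions, a ratio of 0.559. Counted per length, 46.0 summits per Mb (exact Poisson 95% interval 39.8 to 53.0) lay near piRNA starts and 93.9 per Mb (88.8 to 99.3) elsewhere on the chromosome.

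The clusters, built by joining piRNA genes over gaps under 100 kb, differed from each other in this. With gaps under 50 kb, the left cluster shrank from 5.46 to 1.95 Mb and kept 2702 piRNA genes. The right cluster shrank from 4.13 to 3.53 Mb and kept 11239. Densities of each cluster alone and outside the clusters were taken at 100 kb only. Whether they depend on the gap was not tested. The left cluster (4630304 to 10091151, 3011 piRNA genes) had 64.6 members per Mb of sequence near a start (51.8 to 79.6) and 72.7 other summits per Mb of the rest (64.7 to 81.5), and these intervals overlap. The right cluster (13362168 to 17489571, 11568 piRNA genes) had 33.4 per Mb (26.9 to 41.0) and 105 per Mb (88.7 to 123). There 66.1% of bases were near a start and 38.2% of regions. Outside the clusters the 135 piRNA genes of the chromosome had 15 members, at a ratio of 1.16 to the share of bases. The interval of that density (67.1 to 198 per Mb) holds the density of other summits outside the clusters, 103 per Mb.

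Density rose with distance from the start. Under 100 bp from a start, chromosome IV had 25.5 summits per Mb (18.9 to 33.7). From 100 bp up to 200 bp it had 48.4 (36.05 to 63.7), and from there up to 300 bp 77.8 (57.0 to 104), close to the 76.5 found between 500 and 1000 bp. Members were not tilted to one side: 89 of 194 on IV (45.9%, 38.7 to 53.2) lay upstream of the nearest start.

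**Figure D3:**
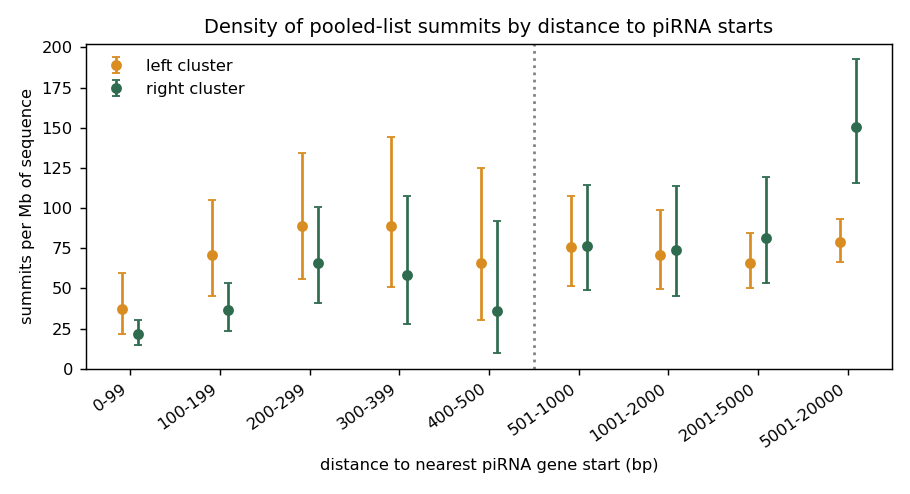
Summits of the pooled list per Mb of sequence at each distance from the nearest piRNA start, for both chromosome IV clusters; bars are exact Poisson 95% intervals and the dotted line marks the 500 bp limit. The lowest values of both clusters are under 100 bp, 37.1 in the left and 21.5 in the right.

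Dense piRNA sequence held the fewest regions. In windows of 10 kb on chromosome IV without a piRNA gene there were 102 summits per Mb (95.7 to 109). Windows with 1 to 9 piRNA genes had 65.5 (57.4 to 74.5), those with 10 to 29 had 69.9 (58.6 to 82.8), and those with 30 to 69 had 37.2 (29.8 to 45.9). Of the 234 windows in the densest class, 75.2% had no region at all, against 45.6% of the 968 windows without piRNA genes. The median GC content of the windows fell over the same classes, from 35.6% to 34.7%, 32.5% and 30.4%.

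**Figure D4:**
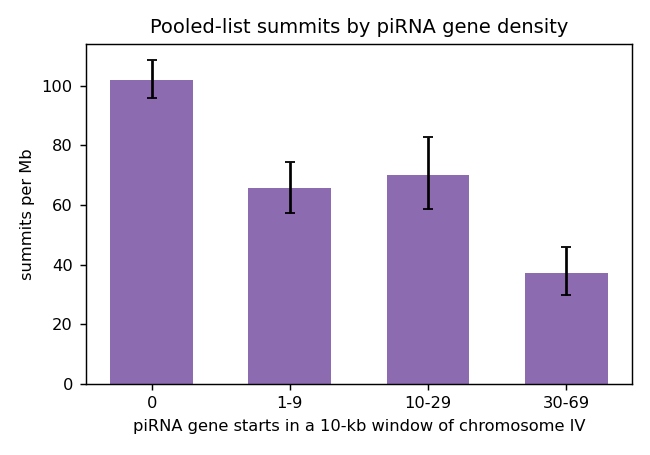
Summits of the pooled list per Mb in 10-kb windows of chromosome IV, grouped by the number of piRNA genes that start in the window; bars start at 0 and error bars are exact Poisson 95% intervals. The densest class, 30 to 69 genes, stands at 37.2 and the class without piRNA genes at 102.

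GC content moved with this shortfall. Members on IV had a median of 37.6% GC around the summit, other regions of the chromosome 39.6% (38.6% in the clusters), and the whole chromosome 34.6%. All 14714 piRNA starts of IV had a median of 27.7% (quartiles 24.8 and 31.7). The 472 of them with a pooled region within 500 bp had one of 28.7%, so members sat in sequence richer in GC than the piRNA starts they were near. Of the bases near piRNA starts, 73.8% fell in the lowest GC class, against 49.4% of the rest.

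The shortfall was seen in the AT-rich sequence. In the lowest GC class there were 24.1 summits per Mb near piRNA starts (19.0 to 30.2) and 64.8 (58.8 to 71.3) in the rest of the chromosome. In the middle class the densities were 88.1 (69.0 to 111) and 95.5 (86.6 to 105), and in the highest 168 (123 to 224) and 174 (158 to 192), with intervals that overlap. All 1441 regions of IV, members included, were then shared out over the bases in steps of 1 percentage point of GC. This matching gave 277 regions for the bases near piRNA starts, where 194 were found (ratio 0.700). It did not use the density of the rest of the chromosome alone. In the lowest class it gave 153 against 75 found (ratio 0.489). The part played by GC content in the shortfall was not tested beyond this matching.

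**Figure D5:**
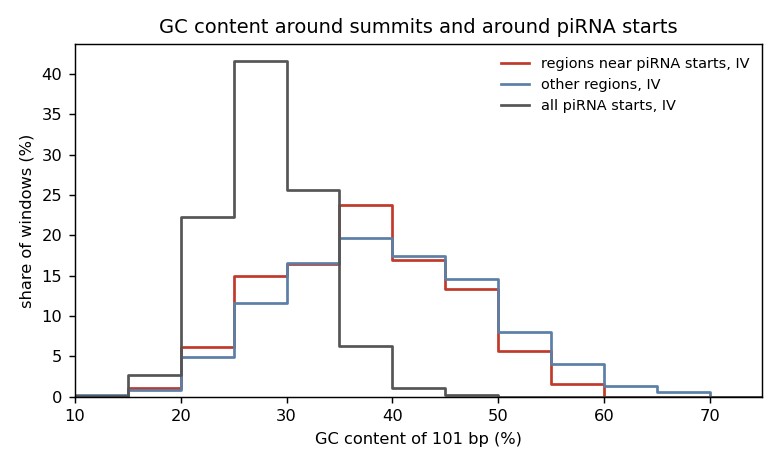
Share of windows, reaching 50 bp to either side, in steps of 5 percentage points of GC content, for members on chromosome IV, for other regions there and for all its piRNA starts. The 2 groups of regions lie close together, with medians of 37.6% and 39.6%, and the piRNA starts lie lower, at 27.7%.

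Seen from the genes, 511 of 15363 piRNA genes (3.33%, 3.05 to 3.62) had a pooled region within 500 bp of the start, while 12.3% of protein-coding genes did. The 511 genes share 238 summits, so they are not independent and the interval is too narrow. The share was 3.21% on chromosome IV and 6.01% (4.31 to 8.12) for the 649 piRNA genes elsewhere. Genes for other small RNAs had higher shares, 50.7% of 612 tRNA genes, 35.8% of 346 snoRNA genes and 26.1% of 261 miRNA genes. Of the member summits, 119 had 1 piRNA start within 500 bp, 119 had more and 28 had 5 or more, up to 8. Median ranks over members with 1 start, 2 to 4 and 5 or more were 5664, 5882 and 5763.5. Their median GC content was 38.6%, 38.6% and 29.2%. These classes cover all chromosomes, and the class with 1 start includes members off IV, whose median rank was 4559.5.

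Among members found in both replicate lists, the 5 closest to a piRNA start ranked from 2337 to 6971. Some members as close but found in 1 list ranked lower, such as 21ur-3265 (4 bp, rank 8597) and 21ur-1502 (6 bp, rank 9510). Summits inside a piRNA gene numbered 10. Among the 132 members in both replicate lists, the nearest to a start was at 21ur-14449 (II, 8020732), with its summit on the first base of the gene, inside zyg-11, a subunit gene of a ubiquitin ligase. It ranked 2443, and 8516 and 2614 in replicates 1 and 2. The next lay 3 bp downstream of 21ur-3706, shown above (IV, 16381022; rank 2337, replicates 2389 and 7667), and 3 bp downstream of 21ur-8530 (IV, 14942016; rank 6971, replicates 16049 and 9012). The others among the 5 nearest were at 21ur-789 (IV, 13701052; 8 bp downstream, rank 6549) and 21ur-9578 (IV, 15349468; 10 bp upstream, rank 2400). None of the 5 was among the strongest 1000 regions of any list.

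The upstream core was common at the genes and rare at the summits. It lay 30 to 60 bases upstream, on the gene's strand, in 34.6% of chromosome IV piRNA genes (33.8 to 35.4) and 6.63% of those elsewhere (4.84 to 8.82). IV genes with a region had it in 38.3% of cases (33.9 to 42.9) and those without in 34.5% (33.7 to 35.3). Several genes can share 1 summit, which the interval of 33.9 to 42.9 leaves out of account. Around the summits, CTGTTTCA on either strand was found within 50 bp in 11 of 194 members on IV (5.67%, 2.86 to 9.92). The same window holds it around 10.6% of all bases within 500 bp of a piRNA start on IV, and around 3.10% of all bases of the chromosome. Other regions of IV had it in 0.642% (0.277 to 1.26) and all pooled regions in 0.663%. For its 6-base end GTTTCA, which is contained in the core, the shares were 19.6% of members on IV, 27.8% of bases near piRNA starts and 5.85% of other regions. None of the 11 members with the core ranked better than 2337, and 6 of them were found in both replicate lists.

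Genes of other types were near 86 of the 238 summits (36.1%, 30.03 to 42.6), and the remaining 152 had piRNA starts only. On chromosome IV the share was 33.0% of members (26.4 to 40.1) and 39.4% of other regions (36.7 to 42.1), and these intervals overlap. On chromosome IV, a protein-coding start was within 500 bp of 30 of 194 members (15.5%, 10.7 to 21.3), against 28.1% of other regions of the chromosome (25.7 to 30.7) and 32.6% of other regions in the clusters (28.2 to 37.2). Off IV it was 18 of 44 (40.9%). By location, 77 of all member summits were in introns, 38 in coding exons, 9 in UTRs and 96 in no annotated gene. Introns held 34.0% of member summits on IV and 32.7% of other summits there, and 39.7% and 32.7% lay in no annotated gene. On IV, coding exons held 14.4% of member summits (9.81 to 20.2) and 24.2% of other summits (21.9 to 26.7).

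Genes for tRNAs, snoRNAs or snRNAs had a start near 19 members, 17 of them on IV, and the 17 had a weaker median rank than other regions of IV near such genes. On IV a tRNA start was near 13 members (6.70%, 3.62 to 11.2) and 2.65% of other regions (1.83 to 3.70). The 13 had a median rank of 4074, whereas the 33 other regions of IV near a tRNA start had one of 895. For tRNA, snoRNA and snRNA starts together the medians on IV were 5314 over 17 members and 858 over 66 other regions. Of these 66, 33.3% were in the IDR set, and of the 17 members 1 was. Of the members, 2 lay near a snoRNA start, at ranks 6050 and 9261, both on IV. They were 1.03% of members there (0.125 to 3.67), beside 2.25% of other regions of IV. None lay near a gene of annotated type miRNA (upper limit 1.54% of members), beside 0.962% of other regions of IV. Both shares of other regions lie within the members' limits. The 2 members off IV were the neighbouring summits of ranks 118 and 408 at sup-39. They also lay 162 bp and 38 bp from the start of mir-1831, which has a microRNA name but is annotated as an snRNA gene.

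Several members fell inside the same long protein-coding genes, which were singled out here for their counts. unc-44 (IV, 5975557 to 6004857), the ankyrin gene, held 8 members, at ranks 483 to 8095 with a median of 1715.5, and 4 other regions. It contains 20 piRNA starts. lam-1, a laminin subunit gene of 10.4 kb with 20 piRNA starts, held 7 members at ranks 3240 to 9566. jac-1, a catenin gene, contains 142 piRNA starts and unc-5, the netrin receptor gene, contains 97. Each held 5 members and no other region. Some of these members share a replicate region, such as ranks 3580 and 3700 in lam-1, whose replicate regions were the same, of ranks 1206 and 4996.

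Genes that make and use piRNAs were looked at as a list. Of 33 names, 32 matched the annotation, and 3 (9.38%, 1.98 to 25.02) had a pooled region within 500 bp of the start, beside 12.3% of all protein-coding genes. Of the 9 transcription genes it was attf-6, which encodes an AT-hook protein (rank 6110, replicates 5534 and 7174). Of the 12 processing genes they were parn-1, the ribonuclease that trims piRNA 3′ ends (rank 3491, replicates 13929 and 2869), and erh-2, part of the complex that processes piRNA precursors (rank 6275, rank 4891 in replicate 1 and not found at its start in replicate 2). None of the 11 effector and silencing genes had one, among them prg-1, the Piwi protein that binds piRNAs. No gene of the list was near an IDR summit (upper limit 10.9%, beside 0.981% of protein-coding genes). In the replicate lists 7 and 3 of the 32 had a region (21.9% and 9.38%), where 20.99% and 16.01% of all protein-coding genes did.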

How the data were processed

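The data were ChIP-seq region lists of 2 biological replicates of 1 group, from separate samples per the labels. The authors deposited a relaxed list per replicate (19062 and 13957 regions), a relaxed list of the pooled replicates (9660) and an IDR set (394), which hold background as well as enriched regions except for the last, per the descriptions deposited with the files. Column 7 holds a signal value and column 9 a −log10 q-value, both as the authors deposited them. The aligner, the peak caller, the IDR cutoff and read counts were not given in the sources used here. Depth is therefore unknown. A control named in the descriptions is not analysed here. Only the ce11 lists were used.

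Gene starts and types came from Ensembl release 115 on WBcel235, which is ce11, and sequence from RefSeq's copy of that assembly. Coordinates are 1-based. GC content was taken over the 50 bp to either side of a summit, ranks by signal within 1 list, and an overlap of 1 bp counted as shared. Python 3.11.15, numpy 2.4.6, pandas 2.3.3, scipy 1.17.1 and matplotlib 3.10.9 were used, and distance and cluster finding were tested on simulated data. Intervals are exact at 95%. No significance test was run, since 1 group has no comparison between samples.

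The members, gene lists and motifs were chosen with earlier results of these data known. The regions described singly are members in the IDR set, the 10 strongest, the strongest of each chromosome and cluster, the 5 nearest to a piRNA start in both replicate lists, and pathway genes with a region. The B box, GC matching and genes with several members were added after the values were seen. The alternatives were other distance limits, GC windows, cluster gaps, stricter sets and each replicate alone.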

Additional observations from a re-analysis of the deposited data

How the results depend on the processing

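With a limit of 200 bp the members numbered 123, and from 1 replicate alone 344 to 610. The IDR set held 4 of 238 members at 500 bp, 3 of 123 at 200 bp and 11 of 350 at 1000 bp. Of all 9660 pooled regions, 394 (4.08%) were in it. Of the 238 members, 2 were in the stronger part of the set. The share of all pooled regions in that part was not counted. A q-value under 0.05 passed 7 of the members, beside 5.54% of all pooled regions. The strongest 394 of the 19062 regions of replicate 1 held 6 of its 610 members. The strongest 394 of the 13957 regions of replicate 2 held 3 of its 344. This alternative was chosen after seeing the data. The median rank of members on IV was 14.82 percentile points weaker than that of other regions, 19.25 at 200 bp, 11.12 at 1000 bp and 9.06 to 10.83 from 1 replicate alone. It was 18.06 against other regions of the clusters, 17.27 with members near tRNA, snoRNA or snRNA starts left out and 23.65 in clusters joined over 50 kb, added after seeing the data. Member GC content differed from that of other regions by -1.98 percentage points, and by -3.96 to -1.98 from 1 replicate alone and -0.99 against other regions of the clusters. The share near another gene type, 36.13%, was 21.01% at 200 bp, 46.22% at 1000 bp and 28.69 to 34.01% from 1 replicate alone. The ratio of region share to base share, 0.559, was 0.411 at 200 bp, 0.672 in the clusters, 0.700 with 50 kb gaps and at like GC content (both added after seeing the data), and 0.550 to 0.697 from 1 replicate alone. The ratio turned direction outside the clusters, at 1.16, but over 15 members only. Their density interval (67.1 to 198 per Mb) holds the 103 per Mb of other summits there, so no difference was shown. Why the ratio was 1.16 there was not tested. No paired analysis was possible because the replicates form 1 group. Depth is unknown, no mock precipitation was analysed here, and neighbouring members can share a replicate region, so counts of regions are not counts of independent loci.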
